A study of Mus musculus with 6 samples.

Results

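Cell cycle genes were examined in liver tumours and non-tumorous liver of mice with a hepatocyte deletion of Srsf3, which encodes an SR protein that regulates splicing. The set held 50 genes, chosen by name: 19 replication genes, which act before and during DNA synthesis, and 31 mitosis genes, which act in G2, in chromosome segregation and in cytokinesis. A gene was measured if a feature of the array was annotated with its symbol alone, which 48 of the 50 were, among 20261 gene symbols in all. The annotation gave no feature for the mitotic cyclin Ccnb1, and the feature of Foxm1, the transcription factor of G2 genes, was shared with Tex52, so neither has a value. Of the 48, 46 (17 replication and 29 mitosis genes) passed the filter on dim features described below and were tested among 16824 genes.

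Total RNA of 6 samples was hybridised, 1 array a sample. Non-tumour 405, 483 and 623 were non-tumorous liver, and tumour 405, 483 and 616 were hepatocellular carcinomas. All came from untreated C57BL/6 mice aged 24 months that carried the hepatocyte deletion of Srsf3 (SRSF3HKO), so both groups share the deletion and no sample with an intact gene was compared. The deletion is described as one of hepatocytes, and whether other cells of the liver keep the gene was not checked here. The sources used here give neither the driver of the deletion nor the number of animals. The p-values below therefore measure the spread between these samples only, and 3 arrays a group limit the precision.

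A dividing cell copies its DNA once in S phase and shares it out in mitosis, and each step has its own genes. Cyclin E and the E2F factors start replication, the Mcm helicase opens the DNA, and cyclin B with Cdk1, the Aurora and Polo kinases and the kinesins carry out mitosis. Most adult hepatocytes rest outside the cycle and re-enter it after injury or in carcinoma, and many are polyploid. In tissue RNA these messages are read as markers of cycling cells, but fewer cycling cells and less of the message per cycling cell cannot be told apart here.

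Replication and mitosis genes are known to be controlled by separate promoter elements, the E2F site and the cell cycle homology region (CHR), and the latter often stands beside CCAAT boxes. RefSeq promoter windows of build GRCm38.p6, each from 250 bases before to 50 bases after a start, were matched by symbol for 43 of the 50 genes, in 47 windows. Searched on both strands, a CHR (TTTGAA or TTCGAA) was found in 22 of 28 mitosis windows (78.6%), in 5 of 19 replication windows (26.3%) and in 19.2% of 32851 windows of all genes. CCAAT was found in 85.7% of mitosis, 68.4% of replication and 37.4% of all windows, and both motifs in 75%, 26.3% and 7.52%. An E2F site (TTTCGCGC, TTTGGCGC, TTTCCCGC or TTTGCCGC) was found in 7 replication windows (36.8%), 1 mitosis window (3.57%) and 2.26% of all windows. Overlapping matches, such as 2 E2F sites on opposite strands, were counted separately, and a match is a description of the letters only.

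The windows of 5 genes whose array values are given below are printed 5′ to 3′ on the gene's strand, with each motif match in capitals. They show 3 mitosis genes, from the 22 of 28 mitosis windows with a CHR, and 2 replication genes, from the 7 of 19 replication windows with an E2F site. The messages of these 5 genes were lowest on the same array, non-tumour 483, and a link to the motifs was not tested. Ccnb2 lies at chr9:70421505-70421804, Cdk1 at chr10:69352863-69353162 and Aurka at chr2:172370521-172370820, all on the minus strand. Mcm5 lies at chr8:75109259-75109558 on the plus strand and Mcm6 at chr1:128359656-128359955 on the minus strand.
Ccnb2: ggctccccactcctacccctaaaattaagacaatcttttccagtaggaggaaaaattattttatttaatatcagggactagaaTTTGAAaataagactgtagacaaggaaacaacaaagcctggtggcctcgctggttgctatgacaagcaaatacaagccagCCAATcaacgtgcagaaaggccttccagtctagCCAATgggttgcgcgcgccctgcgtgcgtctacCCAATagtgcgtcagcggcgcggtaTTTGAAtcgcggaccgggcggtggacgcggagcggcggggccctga
Cdk1: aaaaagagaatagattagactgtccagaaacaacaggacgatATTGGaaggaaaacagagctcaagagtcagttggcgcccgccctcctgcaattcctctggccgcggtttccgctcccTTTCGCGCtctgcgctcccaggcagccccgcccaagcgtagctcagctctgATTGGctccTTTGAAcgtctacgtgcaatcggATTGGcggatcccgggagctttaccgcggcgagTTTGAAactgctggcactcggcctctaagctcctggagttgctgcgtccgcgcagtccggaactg
Aurka: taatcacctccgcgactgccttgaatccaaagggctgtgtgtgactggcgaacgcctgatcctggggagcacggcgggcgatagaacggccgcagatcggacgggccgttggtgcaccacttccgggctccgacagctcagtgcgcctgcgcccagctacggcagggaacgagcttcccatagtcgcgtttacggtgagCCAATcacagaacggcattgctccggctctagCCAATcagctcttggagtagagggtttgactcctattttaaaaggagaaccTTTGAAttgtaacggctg
Mcm5: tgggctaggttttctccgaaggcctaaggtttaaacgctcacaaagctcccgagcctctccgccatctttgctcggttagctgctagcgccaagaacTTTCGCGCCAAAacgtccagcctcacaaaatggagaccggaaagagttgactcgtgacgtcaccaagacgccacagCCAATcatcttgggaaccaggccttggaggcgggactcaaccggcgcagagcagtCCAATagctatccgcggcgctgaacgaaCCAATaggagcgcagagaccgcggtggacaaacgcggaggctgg
Mcm6: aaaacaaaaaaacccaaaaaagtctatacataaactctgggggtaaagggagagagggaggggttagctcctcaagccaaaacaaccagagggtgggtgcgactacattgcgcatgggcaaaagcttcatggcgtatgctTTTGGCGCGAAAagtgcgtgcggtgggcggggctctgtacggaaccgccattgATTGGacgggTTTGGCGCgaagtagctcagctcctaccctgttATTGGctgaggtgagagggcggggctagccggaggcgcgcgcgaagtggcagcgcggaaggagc
The windows of Ccnb2 and Aurka held 2 and 1 CHR matches with 3 and 2 CCAAT boxes and no E2F site. The window of Cdk1 held 2 CHR, 3 CCAAT and 1 E2F match, and was the one mitosis window with an E2F site. Those of Mcm5 and Mcm6 held 2 and 3 E2F matches, 3 and 2 CCAAT boxes and no CHR.

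**Figure D1:**
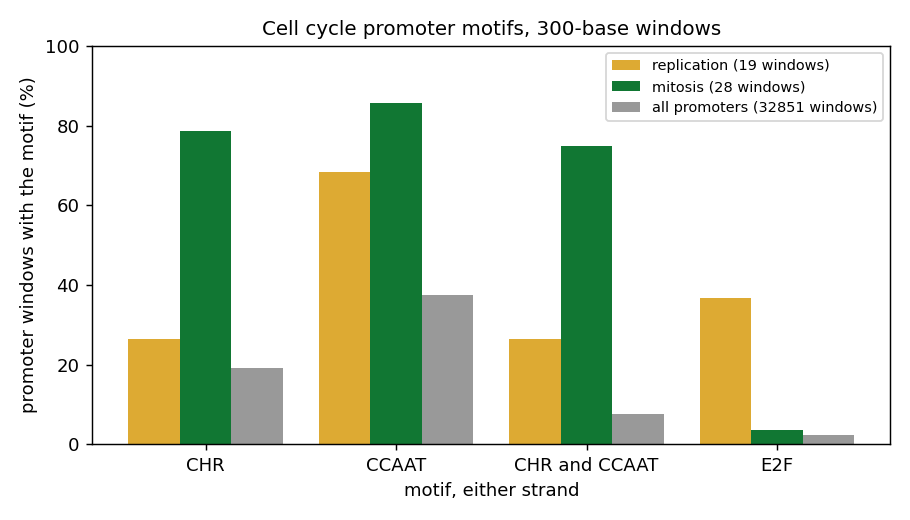
Share of RefSeq promoter windows (vertical axis, percent) that hold each motif on either strand (horizontal axis), for 19 windows of replication genes, 28 of mitosis genes and 32851 of all genes. The CHR was found in 78.6% of mitosis windows and the E2F site in 36.8% of replication windows, against 19.2% and 2.26% of all windows.

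The arrays differed in brightness as deposited, with median intensities from 83.6 (tumour 405) to 197 (non-tumour 623) over features with 1 symbol. They were therefore brought to one distribution by quantile normalization of log2(intensity + 16), the scale of every value below unless stated, and differences are tumour minus non-tumour. Features with a mean intensity under 62.3, the 25th percentile, were left out as dim. The 11 of 14 hepatocyte markers measured were bright on every array, Alb between 13.22 and 13.33 and Hnf4a between 11.89 and 12.32. Most were lowest in tumour 405, where Cyp2e1 lay at 8.38 against 11.85 to 12.94 elsewhere. Their summed intensity was 56596 in tumour 405 and 72933 to 81838 on the other arrays. Srsf3 itself lay between 9.36 and 10.79 over its brighter features and between 4.97 and 6.10 with its dim features included, with overlapping groups, but the position of its features against the deleted part is unknown here, so they do not check the deletion. Non-tumour 623 stood apart in sex-linked genes. Xist, the RNA of the inactive X, lay at 5.17 there and from 10.55 to 12.30 elsewhere, and the Y-linked Eif2s3y at 8.69 against at most 5.10. By these genes non-tumour 623 reads as male and all tumours as female, so sex was not balanced between the groups. The part of sex in the differences was not tested. Non-tumour 405 stood apart in Afp, a fetal liver gene that some hepatocellular carcinomas express, at 10.92 against 5.29 to 7.04 on the other arrays, tumours included. Afp was chosen after its values were seen, and what sets this sample apart was not tested.

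Tumours and non-tumorous liver were compared to ask whether the carcinoma samples carry more cell cycle message than the non-tumorous samples. None of the 46 genes passed the test (limma, adjusted p from 0.914 to 0.99), nor did any gene on the array (0 of 16824, 0.00%). Without adjustment for many tests, 4 members were higher at p under 0.05 (limma), Nusap1, Bub1, Aurka and Ccne2, and 0 were lower, 8.7% of members against 2.66% of all genes higher (448 genes) and 1% lower (169 genes). This count changed when single samples were left out, which also leaves fewer arrays and changes the share of all genes. It was 0 of 46 without non-tumour 405 (1.4% of all genes), without tumour 405 (1.2%) or without tumour 616 (1.58%), and 1 without non-tumour 483 (2.09%). It was 11 without non-tumour 623 (6.14%) and 10 without tumour 483 (4.42%). For the members the SD that limma used, which borrows from other genes, was at the median 0.815 times their own. The 4 unadjusted calls and the intervals rest on this SD, and a test on each gene's own SD was not run. With 3 arrays in each group the smallest p of an exact permutation test is 0.1. More members stood above 0 than below: 31 of 46 were higher in tumour, against 43.5% of all genes. The median difference was 0.13 for replication genes, 0.29 for mitosis genes and -0.05 for all genes. Without non-tumour 483 these medians became -0.01, 0.04 and -0.05, and 24 members were higher and 22 lower. With 1 sample left out in turn the medians ran from -0.01 to 0.26 for replication genes and from 0.04 to 0.50 for mitosis genes. On the deposited scale, where the median gene itself stood at -0.48, 14 members were above 0 and 32 below, and 35 lay above the median gene. There limma called 0 members, against 0.0832% of all genes higher and 0.262% lower. Unadjusted, 0 members were higher and 3 of 46 lower there, against 8.02% of all genes lower. On that scale limma took each gene's SD from the intensity trend alone, so these calls are not like those above.

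**Figure D2:**
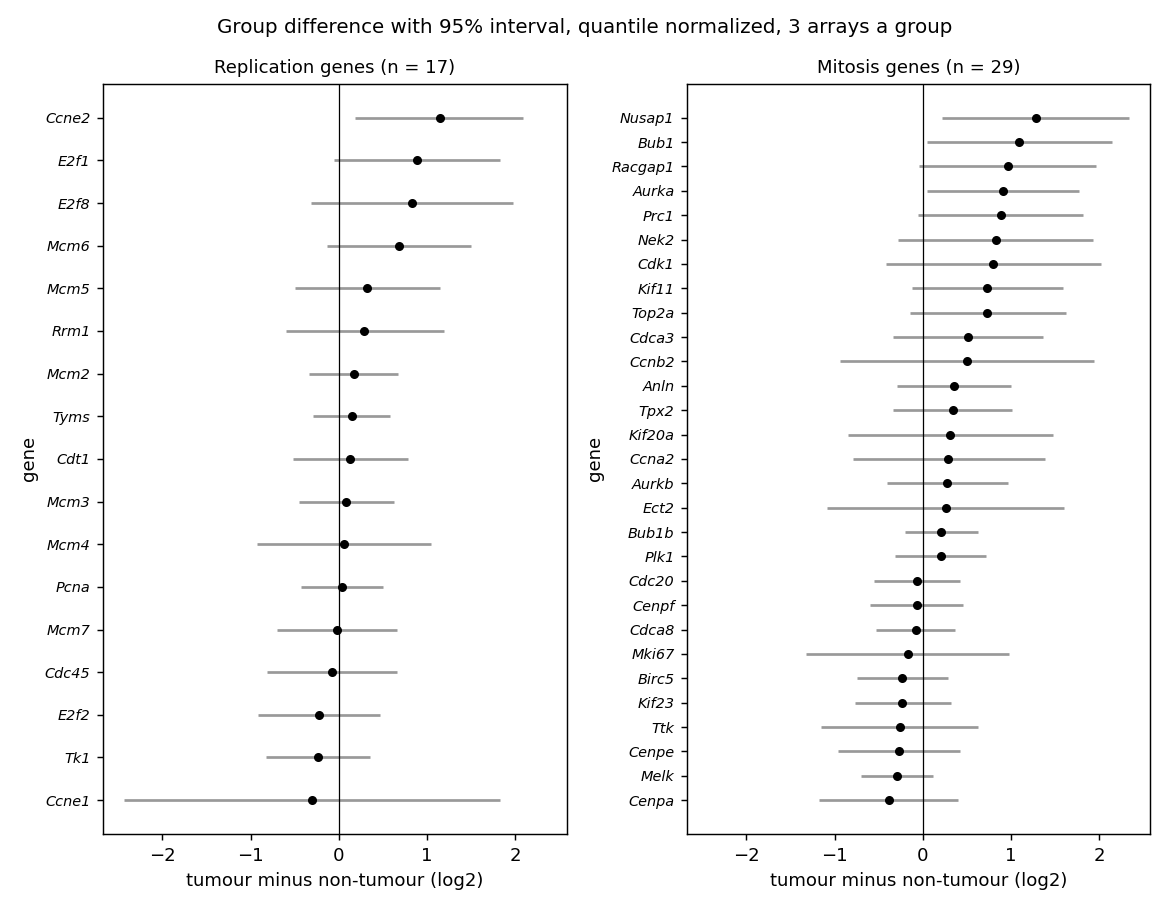
Tumour minus non-tumour difference of each gene (points, log2 units, horizontal axis) with its 95% interval from limma (lines), 3 arrays a group, for 17 replication and 29 mitosis genes. Differences ran from -0.30 (Ccne1) to 1.14 (Ccne2) among replication genes and from -0.38 (Cenpa) to 1.28 (Nusap1) among mitosis genes, and most intervals cross 0.

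In these genes non-tumour 483 stood apart from the other arrays. Non-tumour 483 held the lowest of the 6 values in 30 of 46 members (65.2%), against 16.9% of all genes: in 21 of 29 mitosis genes (72.4%) and 9 of 17 replication genes (52.9%). Its median distance from a gene's mean over the 6 arrays was -0.85 for mitosis genes and -0.44 for replication genes, and 0.01 for all genes. Tumour 616 lay at the other end, lowest in 0 of 46 members (14.4% of all genes) and highest in 15 (32.6% against 11.9%). Non-tumour 405 was highest in 14 members (30.4% against 34.3% of all genes) and lowest in 1. The count for non-tumour 483 was 26 of 46 as deposited (15.9% of all genes) and 30 after median centring (14.0%). With any other array left out it lay between 30 and 34 of 46, against 18.9% to 23.6% of all genes. Leaving out another array can only keep or raise this count, so these values do not check it. Without non-tumour 483, 9 of the 46 differences changed sign, 18 shrank and 10 grew by over 1.5 times. Without non-tumour 623, 1 changed sign, 2 shrank and 21 grew by as much.

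Genes of the same pathway outside the set were read in the same way, beside the 16.9% of all genes that were lowest on non-tumour 483. Most of these lists are short, and differences between them were not tested. In 43 measured of 57 other mitosis genes, such as kinetochore and condensin subunits, non-tumour 483 was lowest in 28. In 41 measured of 44 other replication genes, such as polymerase and origin recognition subunits, it was lowest in 16. Among G1 cyclins and kinases it was lowest in 2 of 8, among cell cycle inhibitors in 4 of 13, and among E2F and MuvB regulators in 2 of 12. Markers of the cell types in the tissue were read likewise. Non-tumour 483 was lowest in 0 of 11 macrophage, 0 of 9 lymphocyte, 0 of 4 erythroid, 0 of 7 neutrophil, 0 of 6 cholangiocyte, 1 of 9 stellate and fibroblast, 1 of 11 hepatocyte and 4 of 10 endothelial markers.

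**Figure D3:**
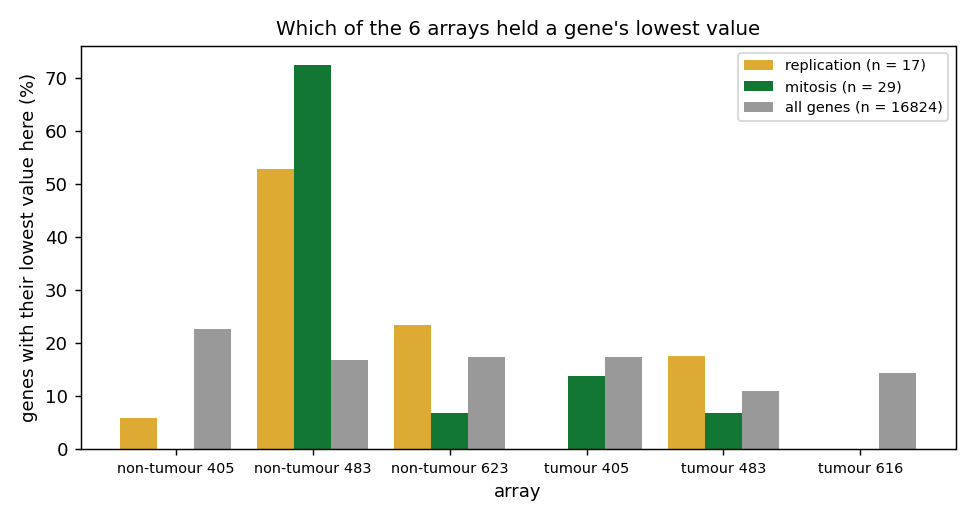
Share of genes (vertical axis, percent) whose lowest value over the 6 arrays fell on each array (horizontal axis), for 17 replication genes, 29 mitosis genes and all 16824 genes. Non-tumour 483 held the lowest value of 52.9% of replication and 72.4% of mitosis genes, against 16.9% of all genes.

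**Figure D4:**
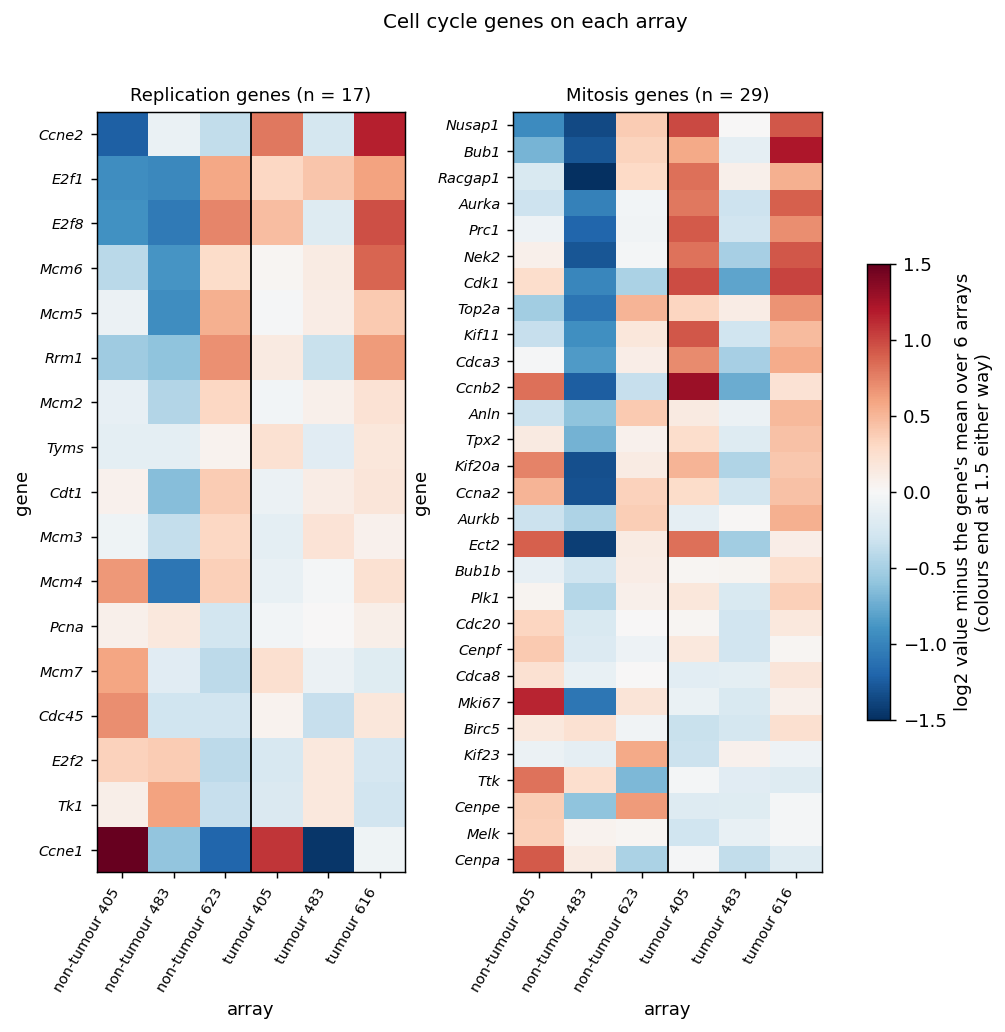
Value of each gene on each array minus that gene's mean over the 6 arrays (colour, log2 units; rows are genes, columns arrays), for replication and mitosis genes, ordered by group difference. Non-tumour 483 is blue for most mitosis genes, while tumour 405 and tumour 616 are red for the upper rows.

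Among replication genes the cyclins E and E2F factors stood at both ends, with Ccne2, E2f1 and E2f8 highest and Ccne1 and E2f2 among the lowest. Ccne2, a cyclin E that activates Cdk2 at the start of S phase, lay at 5.97, 7.10 and 6.83 in non-tumour 405, 483 and 623, compared with 7.99, 6.94 and 8.37 in tumour 405, 483 and 616. Tumour 405 and 616 lay above all non-tumour arrays, and tumour 483 within their range. The difference was 1.14 ± 0.41 (SE, n = 3 each, 95% interval 0.18 to 2.09, limma adjusted p = 0.914). Its paralogue Ccne1 lay at 10.65, 7.82 and 7.22 in non-tumour 405, 483 and 623, compared with 9.49, 6.95 and 8.35 in tumour 405, 483 and 616. The groups overlapped, and each spread widely, over 3.44 log2 units in non-tumour and 2.54 in tumour samples. The difference of Ccne1 was -0.30 ± 0.93 (95% interval -2.43 to 1.83), 0.74 without non-tumour 405 and 0.36 without tumour 483.

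E2f1, an activator of S phase genes, lay at 6.90, 6.87 and 8.41 in non-tumour 405, 483 and 623, compared with 8.14, 8.25 and 8.44 in tumour 405, 483 and 616. The tumours lay close together, and of the non-tumour samples only 623 reached them. The difference was 0.88 ± 0.41 (SE, 95% interval -0.05 to 1.82, limma adjusted p = 0.914), and 1.39 without non-tumour 623. E2f8, an atypical E2F that represses those genes and is known for its part in hepatocyte polyploidy, lay at 6.66, 6.51 and 8.31 against 8.04, 7.38 and 8.54. It was again highest among non-tumour samples in 623, and its features, both kept, stood at 0.86 and 0.79. The difference of E2f8 was 0.83 ± 0.50, 1.40 without non-tumour 623 and 0.50 without non-tumour 483. E2f2, a further activator, lay between 9.89 and 10.67 on all arrays, with a difference of -0.23. Without non-tumour 623 no replication or mitosis gene passed either (limma, smallest adjusted p among members 0.283).

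The 6 subunits of the Mcm2-7 helicase gave estimates from -0.02 to 0.68, whose differences from each other were not tested. Mcm6 lay at 7.62, 7.15 and 8.30 in non-tumour 405, 483 and 623, compared with 8.06, 8.15 and 8.90 in tumour 405, 483 and 616, a difference of 0.68 ± 0.36 (SE, limma adjusted p = 0.914). Mcm5 (0.32), Mcm2 (0.17), Mcm3 (0.08), Mcm4 (0.06) and Mcm7 (-0.02) were nearer 0. For Mcm2 to Mcm6 non-tumour 483 was the lowest array, as for Mcm4 at 6.86 against 7.83 to 8.60 elsewhere. Without that array Mcm6 stood at 0.41, Mcm5 at -0.06, Mcm2 at -0.01, Mcm3 at -0.08 and Mcm4 at -0.47. Without non-tumour 623 Mcm2 stood at 0.36 and Mcm5 at 0.67. Mcm7 was lowest in non-tumour 623 (7.52), and its second feature was dim. Of the loading factors, Cdt1, which brings the helicase to origins, stood at 0.13, and Cdc45, which joins it when origins fire, at -0.08. Cdc6, the other loader, was below the filter, and without the filter it ranged from 5.80 to 6.59 with a difference of -0.09.

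Enzymes of nucleotide supply and the sliding clamp had small differences or were dim. Pcna, the clamp of the DNA polymerases, lay at 7.68, 7.76 and 7.33 in non-tumour 405, 483 and 623, compared with 7.56, 7.61 and 7.70 in tumour 405, 483 and 616. Its difference was 0.03 ± 0.20 (SE, 95% interval -0.43 to 0.50), and all arrays lay within 0.44 log2 units of each other. Tyms, the thymidylate synthase, stood at 0.15 ± 0.19, Rrm1, the large subunit of ribonucleotide reductase, at 0.29 ± 0.39, and Tk1, the thymidine kinase of S phase, at -0.24 ± 0.26. A further feature that named both Tyms and Tyms-ps was not used, and whether the pseudogene adds to the value of Tyms was not tested. Rrm2, the small and cycle-regulated subunit, was below the filter. Without the filter it lay at 6.37, 5.71 and 5.86 against 6.74, 6.16 and 6.63, a difference of 0.53 ± 0.23 (limma adjusted p = 0.939). Tumour 405 and 616 lay above all non-tumour arrays, and tumour 483 below non-tumour 405.

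Over the replication genes the non-tumour samples spread more widely than the tumours. The range over non-tumour samples was wider than that over tumours in 15 of 17 replication genes and 20 of 29 mitosis genes, against 66.7% of all genes. The tumours lay wholly inside the non-tumour range in 10 of 17 replication genes and 7 of 29 mitosis genes, against 29.8% of all genes. Non-tumour 623 was highest in 5 of 17 replication genes and 2 of 29 mitosis genes (11% of all genes). The median range was 1.02 log2 units over non-tumour and 0.42 over tumour samples for replication genes, 1.14 and 0.63 for mitosis genes, and 0.63 and 0.43 for all genes.

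Among mitosis genes the 4 largest differences were those of Nusap1, Bub1, Racgap1 and Aurka. Nusap1, which bundles spindle microtubules, lay at 6.43, 6.02 and 7.76 in non-tumour 405, 483 and 623, compared with 8.37, 7.38 and 8.31 in tumour 405, 483 and 616. Tumour 483 lay below non-tumour 623 and the others above all non-tumour arrays. The difference was 1.28 ± 0.46 (SE, n = 3 each, 95% interval 0.22 to 2.34, limma adjusted p = 0.914), but the 2 dim features of Nusap1 stood at -0.05 and 0.24. Bub1, a kinase of the spindle checkpoint, lay at 6.16, 5.57 and 7.19 against 8.07 in tumour 616, 7.42 in tumour 405 and 6.72 in tumour 483. Its difference was 1.09 ± 0.45 (95% interval 0.05 to 2.14). Bub1b, its partner in the checkpoint, differed by only 0.21 ± 0.18. Aurka, the Aurora kinase of the spindle poles, lay at 6.94, 6.24 and 7.21 against 8.04, 6.94 and 8.15, a difference of 0.91 ± 0.37 (95% interval 0.05 to 1.77). In Aurka, as in Bub1, tumour 483 lay within the non-tumour range.

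Racgap1, a cytokinesis regulator, lay at 5.28 in non-tumour 483 and at 6.57 to 7.63 elsewhere, with a difference of 0.96 ± 0.43 (SE, limma adjusted p = 0.914). Prc1, which bundles the central spindle, stood at 0.88 ± 0.41, Nek2, a centrosome kinase, at 0.83 ± 0.48, and Kif11, the kinesin that separates the poles, at 0.73 ± 0.37. Top2a, the topoisomerase that untangles chromosomes, stood at 0.73 ± 0.39, and Cdca3, a trigger of mitotic entry, at 0.51 ± 0.37. All of these were lowest in non-tumour 483. Without it Racgap1 stood at 0.44, Prc1 at 0.51, Nek2 at 0.39, Kif11 at 0.45, Top2a at 0.37 and Cdca3 at 0.21. Top2a stood at 1.18 without non-tumour 623. Anln (0.35), Ect2 (0.26) and Kif20a (0.31), of cytokinesis, had the same lowest array, and without it Ect2 stood at -0.38 and Kif20a at -0.27. Tpx2 (0.34), which activates Aurka, and Aurkb (0.27), the kinase of the chromosomal passenger complex, were lowest there too. Without non-tumour 483 Anln stood at 0.14, Tpx2 at 0.07 and Aurkb at 0.11.

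The cyclins and Cdk1, which drive mitotic entry, differed more within the groups than between them. Ccnb2, a mitotic cyclin, lay at 9.28, 7.22 and 8.11 in non-tumour 405, 483 and 623, compared with 9.74, 7.71 and 8.67 in tumour 405, 483 and 616. The groups overlapped and spread alike, over 2.07 log2 units in non-tumour and 2.04 in tumour samples. The difference was 0.50 ± 0.63 (SE, 95% interval -0.94 to 1.94, limma adjusted p = 0.914), and it was 0.01 without non-tumour 483 and -0.02 without tumour 405. Cdk1 lay at 8.67, 7.43 and 7.93 against 9.39, 7.62 and 9.42, a difference of 0.80 ± 0.53 that was 1.40 without tumour 483 and 0.50 to 0.51 without non-tumour 483, tumour 405 or tumour 616. Tumour 405 and 616 were higher than every non-tumour sample, and tumour 483 was lower than 2 of them. Ccna2, the cyclin of S phase and G2, lay at 8.52, 6.71 and 8.36 against 8.29, 7.74 and 8.45, with a difference of 0.29 ± 0.47, of -0.28 without non-tumour 483 and of 0.54 without non-tumour 623.

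Mki67, the histological marker of cycling cells, lay at 9.47, 7.25 and 8.52 in non-tumour 405, 483 and 623, compared with 8.23, 8.10 and 8.40 in tumour 405, 483 and 616. The non-tumour samples held both the highest and the lowest value, and the tumours lay close together between them. As deposited its intensities were 613, 124 and 607 against 183, 294 and 276. The difference was -0.17 ± 0.50 (SE, 95% interval -1.32 to 0.98, limma adjusted p = 0.95), 0.36 without non-tumour 405 and -0.75 without non-tumour 483. Mki67 was thus on the negative side while Nusap1, Bub1 and Top2a were on the positive side of 0, and each interval of Mki67 and Top2a holds 0.

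**Figure D5:**
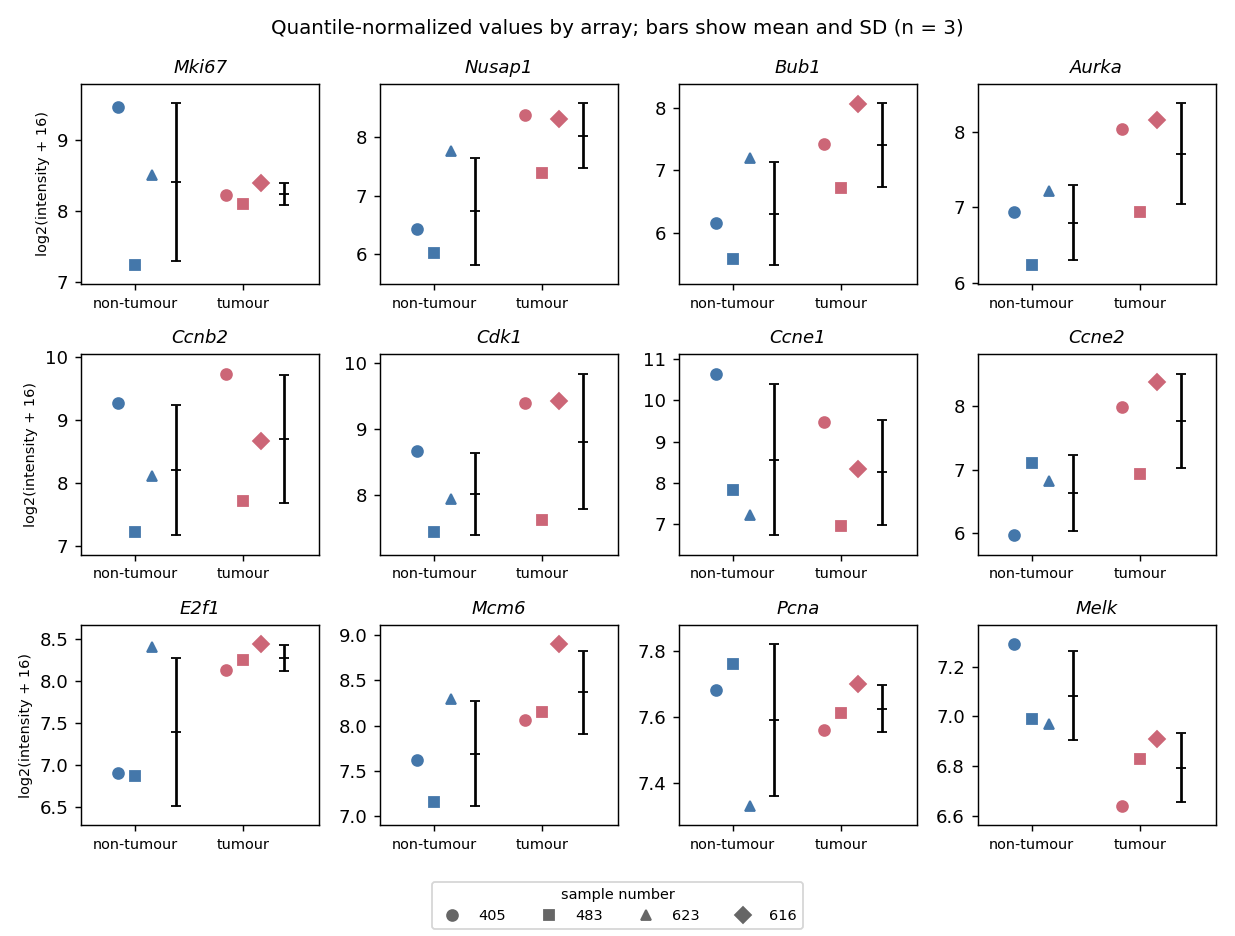
Quantile-normalized log2(intensity + 16) of 12 genes on each array (symbols, by sample number), with the mean and SD of each group of 3 (bars); vertical axes differ between panels. The non-tumour points of Mki67 run from 7.25 to 9.47 around tumours at 8.10 to 8.40, while for Aurka tumour 405 and 616 lie above the non-tumour points and tumour 483 among them.

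Other mitosis genes lay near or below 0. Plk1, the Polo kinase, stood at 0.21 ± 0.23 (SE) as the median of a feature at 0.44 and one at -0.03. Cdc20, the activator of the anaphase-promoting complex, stood at -0.07 ± 0.21, and Birc5, survivin of the passenger complex, at -0.23 ± 0.22. Cdca8, its partner borealin, stood at -0.08, Cenpf, a kinetochore protein, at -0.07, Kif23, a kinesin of the midbody, at -0.23, Ttk, a checkpoint kinase, at -0.26, and Cenpe, a kinetochore motor, at -0.27. Melk, a kinase of proliferating and progenitor cells, was the one member whose groups did not overlap: it lay at 7.29, 6.99 and 6.97 in non-tumour 405, 483 and 623, compared with 6.64, 6.83 and 6.91 in tumour 405, 483 and 616. Its difference was -0.29 ± 0.18 (95% interval -0.70 to 0.12, limma adjusted p = 0.914). Groups that do not overlap were found for 0 members higher and 1 lower, against 3.93% and 3.89% of all genes. As deposited Melk overlapped, and Birc5 and Cenpa were lower in tumour without overlap, 2 of 46 members against 11.7% of all genes.

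Cenpa, the centromeric histone, had 4 features, of which 2 were kept and gave a difference of -0.38 ± 0.34 (SE, limma adjusted p = 0.914). The kept features stood at -0.24 and -0.52. The dim ones stood at -0.71 and -1.01, without overlap, and their deposited intensities were 47.1, 28.4 and 42.9 against 8.3, 3.2 and 3.9 for the dimmer. In all 7 of 57 features of the members were dim, and at these intensities the arrays themselves differed, with 25th percentiles from 36 in tumour 405 to 85.1 in non-tumour 405. When only features above the median intensity of 146 were kept, 34 members remained, 23 of them higher in tumour.

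Regulators upstream of these genes also did not pass. Of all genes 43.5% were higher in tumour, and at an unadjusted p under 0.05 (limma) 2.66% were higher and 1% lower. Of 8 measured G1 cyclins and kinases 4 were higher and 4 lower, with 0 called by limma and 0 unadjusted. Ccnd1, cyclin D1, lay at 12.20, 11.30 and 10.66 in non-tumour 405, 483 and 623 compared with 11.19, 10.61 and 10.93, a difference of -0.48 ± 0.39 (SE). Its kinases differed in sign, Cdk6 at -1.24 ± 0.63, with tumour 405 at 7.03 and the other arrays from 8.71 to 10.41, and Cdk4 at 0.45 ± 0.26. Ccnh, the cyclin of the CDK-activating kinase, stood at 0.67 ± 0.30. Of 13 measured inhibitors 8 were higher and 5 lower, again with 0 called and 0 unadjusted. Cdkn1a (p21) lay at 10.80, 8.52 and 10.12 against 9.89, 11.36 and 9.63, a difference of 0.48 ± 0.65 that became -0.17 without non-tumour 483, where it was lowest. Cdkn2a stood at 0 ± 0.25 and Cdkn1c at -0.14 ± 0.24, while Gadd45a (0.59), Cdkn1b (0.57) and Rbl1 (0.56) were the 3 with the smallest p.

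Of 12 measured E2F and MuvB regulators 7 were higher and 5 lower, with 0 called by limma and 0 unadjusted. Tfdp2, a dimerisation partner of E2F, stood at -0.95 ± 0.45 (SE), E2f3 at -0.27, Lin37, a MuvB subunit, at 0.25, E2f7, the partner of E2f8, at -0.20, and Mybl2, which joins MuvB in S phase, at -0.09. In the other replication list 27 of 41 were higher, against 43.5% of all genes, with 0 called and 2 higher unadjusted, against 2.66%. These were Orc4, of the origin recognition complex, at 1.21 ± 0.44, and Dut, the dUTPase, at 0.95 ± 0.41. Ticrr, a factor of origin firing, stood at -0.41 ± 0.19. In the other mitosis list 27 of 43 were higher, with 0 called and 0 unadjusted. Mad2l1, of the spindle checkpoint, stood at 0.88 ± 0.45, Trip13, which recycles it, at 0.42 ± 0.22, and Espl1, separase, at -0.48 ± 0.25. The list medians were 0.11 and 0.09, against 0.13 and 0.29 in the replication and mitosis members.

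The position of non-tumour 483 was also read by promoter motif, as a description. Among the 40 tested members with a promoter window, it was lowest in 16 of 25 with a CHR and 9 of 15 without, and in 5 of 7 with an E2F site and 20 of 33 without. The median distance from the gene's mean was -0.60 with and without a CHR.

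Other cell types differed between the samples beside these genes. Of 11 measured macrophage markers 10 were lower in tumour, with 0 called by limma and 0 unadjusted, and their summed intensity was 4501 to 17315 in non-tumour against 1844 to 14183 in tumour samples. The lowest sums were those of non-tumour 405 and tumour 405. Lymphocyte markers summed to 978 to 2035 against 935 to 1603, with 7 of 9 lower, and endothelial markers to 4660 to 6202 against 4468 to 9799, with 6 of 10 higher and 4 lower. Unadjusted, 1 endothelial marker was higher: Emcn, a sialomucin of capillary endothelium, lay at 8.33, 7.49 and 8.22 in non-tumour and 10.24, 9.81 and 8.79 in tumour samples. Its groups did not overlap, and the difference was 1.60 ± 0.42 (SE, limma adjusted p = 0.914). Of 6 cholangiocyte markers 1, Muc1, was lower unadjusted, at -0.59 ± 0.23 without overlap. Of all genes, 2.66% were higher and 1% lower unadjusted, and 3.93% were higher and 3.89% lower without overlap. Both markers were picked from the lists after their values were seen. On non-tumour 483 the macrophage sum was 12517 and the endothelial sum 4660. Its lymphocyte (2035), hepatocyte (81838) and stellate and fibroblast (8179) sums were the highest of the 6. The part of these cells in the results was not tested.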

How the data were processed

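Total RNA of 6 liver samples was measured on Affymetrix gene arrays. Per the labels, the authors summarised probes with PLIER (its version is not given in the sources used here) and deposited 1 linear intensity per feature. The submitters' processing notes name build mm9. Of 238609 features, 24343 had 1 gene symbol in the platform annotation, 1797 had several and 212469 none, and only the first were used.

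The deposited intensities were taken to log2(intensity + 16) and quantile normalized. Features with a mean intensity under the 25th percentile (62.3) were left out, and a gene is the median of its kept features. Groups were compared over all 16824 genes with limma 3.58.1 in R 4.3.3 (empirical Bayes with an intensity trend, no covariates, Benjamini-Hochberg adjustment, threshold 0.05), tested on simulated data. Intervals are at 95%. Named were 21 well-known members, those at an unadjusted p under 0.05, without overlap or below the filter, the 3 highest and 3 lowest differences of each class, and, from each further list, the 3 genes of smallest p with 6 regulators picked by name. The other members, Afp, Emcn, Muc1 and the hepatocyte markers were named after their values were seen. Alternatives changed the scaling, pseudocount, filter, choice of feature, trend and replicate block, or left out each sample. The genes, lists and main scaling were chosen with earlier results of these data known. The count of genes lowest in non-tumour 483 was added after seeing the data.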

Additional observations from a re-analysis of the deposited data

How the results depend on the processing

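None of the 46 members was called by limma under any alternative. The number of genes called was 58 as deposited (14 higher, 44 lower) and 0 in the quantile-normalized comparison. As deposited, limma took each gene's SD from the intensity trend alone and not from its own spread. The 2 counts therefore differ in more than the scale. Of 1056 values of 67 named genes under alternatives, 992 kept their sign and 64 changed it, and the cause was not tested. The pooled count is no check of the signs, since some alternatives leave most or all differences as they were. Leaving out the intensity trend, for example, cannot change a difference. The sign changed for 21 named genes as deposited, 11 without non-tumour 483, 9 without non-tumour 405 and at most 7 in any other alternative. On the deposited scale, with the median gene at -0.48, the sign changed for Ccna2 (-0.13), Plk1 (-0.33), Mcm2 (-0.40), Pcna (-0.44), Tyms (-0.41), Cdca3 (-0.07), Anln (-0.22), Tpx2 (-0.13), Kif20a (-0.17), Aurkb (-0.25), Ect2 (-0.12), Bub1b (-0.34), Mcm5 (-0.21), Rrm1 (-0.29), Cdt1 (-0.39), Mcm3 (-0.46), Mcm4 (-0.37), Trip13 (-0.15), Rbl1 (-0.01), Lin37 (-0.32) and Cdkn2a (-0.42). It changed after median centring for E2f2 (0.11), Ttk (0.01), Mcm7 (0.07) and Cdc45 (0.04), with quantiles over every feature for Mcm7 (0.03), and with a pseudocount of 64 for Cdkn2a (0.00). With 1 sample left out in turn, these ranges crossed 0: Mki67 (-0.75 to 0.36), Cdc20 (-0.20 to 0.08), Ccne1 (-0.98 to 0.74), Cenpf (-0.19 to 0.11), Cdca8 (-0.19 to 0.01), Ttk (-0.67 to 0.08), Mcm7 (-0.22 to 0.27), Cdc45 (-0.25 to 0.25), E2f7 (-0.46 to 0.01), Ccna2 (-0.28 to 0.62), Mcm2 (-0.01 to 0.36), Tk1 (-0.47 to 0.00), Kif20a (-0.27 to 0.76), Ect2 (-0.38 to 0.77), Mcm5 (-0.06 to 0.67), Cdt1 (-0.16 to 0.35), Mcm3 (-0.08 to 0.26), Mcm4 (-0.47 to 0.39), Cdkn1a (-0.17 to 0.97), Cdkn2a (-0.12 to 0.22), Pcna (-0.10 to 0.12) and Ccnb2 (-0.02 to 1.04). The groups share the numbers 405 and 483, but the labels do not say that a number marks an animal. Deviations of same-numbered samples correlated at 0.29 (405) and -0.01 (483) across all genes, and at 0.62 and 0.44 across the members, where 405 against 483 gave -0.35 and -0.38 and non-tumour 623 against tumour 616 gave 0.51. With 2 shared numbers the numbers were not taken as pairs. With the replicate block the difference rested on the samples numbered 405 and 483 alone. Non-tumour 623 and tumour 616 share no number and add nothing to it. In this block limma called 0 genes (smallest adjusted p 0.065, among members 0.258), and Pcna (-0.14) and Cdkn2a (-0.09) changed sign. Unadjusted, 10 members were then higher and 1 lower, against 4.56% and 1.67% of all genes. Of the members' features 7 were under the filter on dim signal, and no background level was used here.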
